A study of Mus musculus with 58 samples.

Results

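The complement components C1qa, C1qb, C1qc, C2, C3, C4b, C6, C7 and Cfb were followed in 3 tissues (lung, liver, forestomach) of male Muta™Mouse animals, a transgenic strain that carries a bacterial lacZ reporter. The members were the probes whose RefSeq accession belongs to 1 of the 9 listed genes. No probe was matched to C7, so 8 genes were measured, of 20018 gene names on the array. C3 was read by a pair of probes and the others by 1 probe each. The C4b probe could not be told apart here from the near-identical paralogue C4a, and its values are uncertain in that respect. Mice of about 13 weeks received olive oil or indeno(1,2,3-cd)pyrene (IP), a polycyclic aromatic hydrocarbon, in olive oil by daily gavage for 28 days, and tissues were taken 72 h after the last dose. All mice, vehicle controls included, carried the transgene and received the oil. The groups were vehicle, a low (12.5), a middle (25) and a high dose (50 mg/kg-bw/day). There were 5 lung arrays per group, and 4 vehicle and 5 arrays per dose in liver as well as in forestomach, drawn from the same mice. RNA came from sections of 1 lobe of lung and of liver. The labels number 5 vehicle mice in lung, of which mouse 4 has a lung array only. The study's methods describe fewer vehicle mice at necropsy than the lung labels number, and which of these is right was not settled here.

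Complement is a cascade of plasma proteins that marks microbes, immune complexes and cell debris for removal. C1q is assembled from the products of C1qa, C1qb and C1qc and starts the classical pathway, and macrophages are its main source. C4 and C2 form the C3 convertase of the classical and lectin pathways, factor B (Cfb) forms that of the alternative pathway, and C3 is the protein that both cleave. C6 and C7 belong to the membrane attack complex that assembles at the end of the cascade. Hepatocytes make most of the plasma C3, C4, C2, factor B and C6, while other cells make smaller amounts locally.

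Each array carried Cy5-labelled RNA of 1 mouse and tissue against the same Cy3-labelled universal mouse reference RNA. A level is therefore a log2(Cy5/Cy3) ratio, and 1 unit is a doubling. Levels of different genes were not compared, since each is relative to the reference's own amount of that transcript. All members were above background in Cy5 on all 58 arrays except C6, which was above it in 7 of 19 forestomach arrays. The reference signal of C1qa was above background on only 12 of 19 forestomach arrays. The share of all probes well above background in Cy5 was 54.3 to 71.1% in 16 lung arrays and 84.1 to 90.8% in the other 4 (mice 3, 8, 13 and 18). It was 38.9 to 46.3% in 14 liver arrays and 67.2 to 79.2% in 5 (mice 9, 13, 15, 16 and 20), and 44.4 to 60.0% in 17 forestomach arrays and 81.4 and 86.1% in 2 (mice 8 and 18). The 4 lung arrays of high share were all the lung arrays of slide 2, and the 2 forestomach arrays lay on the same slide. The labelled tissues carried their marker genes. The mean log2 ratio of 8 hepatocyte genes was 7.36 to 8.60 in liver, that of 6 lung epithelium genes 6.35 to 7.41 in lung, and that of 8 squamous epithelium genes 2.76 to 3.92 in forestomach. A list of 8 glandular stomach genes reached 0.62 to 6.42 in forestomach (median 4.98). Its group medians were 6.23 in vehicle mice and 1.85, 2.28 and 4.98 at the low, middle and high dose. Vehicle mice 2, 3 and 5 scored 6.19, 6.28 and 6.31, and vehicle mouse 1 scored 0.62. The vehicle forestomach samples thus differed in glandular stomach content. Its part in the forestomach values, the comparisons with lung and liver included, was not tested. Cyp1b1, a target of the aryl hydrocarbon receptor, was 3.64 log2 units higher in lung at 50 mg/kg-bw/day (SE 0.45, limma adjusted p = 0.00145). Cyp1a1, the other gene planned as an exposure check, is not reported here. In liver and forestomach no probe, those of Cyp1b1 included, had an adjusted limma p of at most 0.05 at any dose.

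RefSeq promoter windows (GRCm38.p6, 250 bases before to 50 after the annotated start) were at hand for C1qb, C1qc, C3, C6 and C7. Those of C3, C1qb and C1qc are shown because C3 was the member that moved most with dose in liver and the C1q genes were the members that varied together there. Capitals mark matches to the motifs searched on both strands.
C3 (chr17:57228087-57228386, minus strand): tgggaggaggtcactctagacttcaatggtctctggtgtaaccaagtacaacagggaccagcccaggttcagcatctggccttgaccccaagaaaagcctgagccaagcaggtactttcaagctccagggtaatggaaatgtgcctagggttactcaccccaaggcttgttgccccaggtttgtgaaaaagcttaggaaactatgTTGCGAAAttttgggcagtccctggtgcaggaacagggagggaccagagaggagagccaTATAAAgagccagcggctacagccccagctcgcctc
C1qb (chr4:136886151-136886450, minus strand): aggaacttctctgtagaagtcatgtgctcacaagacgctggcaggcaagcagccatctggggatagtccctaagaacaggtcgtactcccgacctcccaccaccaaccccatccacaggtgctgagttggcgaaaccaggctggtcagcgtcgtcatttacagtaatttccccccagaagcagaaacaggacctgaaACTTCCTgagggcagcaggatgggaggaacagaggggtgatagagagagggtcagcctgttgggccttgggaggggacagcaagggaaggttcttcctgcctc
C1qc (chr4:136892865-136893164, minus strand): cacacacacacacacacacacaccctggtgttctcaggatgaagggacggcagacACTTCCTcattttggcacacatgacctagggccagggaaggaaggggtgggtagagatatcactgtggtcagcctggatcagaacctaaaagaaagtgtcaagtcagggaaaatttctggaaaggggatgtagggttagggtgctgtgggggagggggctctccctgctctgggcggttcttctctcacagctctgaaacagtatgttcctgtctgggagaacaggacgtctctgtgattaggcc

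The C3 window held TTGCGAAA, a match to the C/EBP pattern TTGCNNAA, from base −45 to −38, and TATAAA from base 15 to 20. Both C1q windows held ACTTCCT, which is the Ets core AGGAAGT read on the opposite strand, at −53 to −47 in C1qb and at −195 to −189 in C1qc. Of 32851 promoter windows of the same length, 10.8% held the C/EBP pattern, 9.35% the Ets core and 13.6% TATAAA. None of these 3 windows held GCGTG, the core bound by the aryl hydrocarbon receptor, which was in 32.4% of all windows, but the C6 window held it at 46 to 50. The STAT pattern TTCNNNGAA (8.3% of windows) was not in the 3 windows but was in that of C7, at −164 to −156, which also held TATAAA on the opposite strand at −6 to −1. The NF-kB (1.63%) and ISRE (3.44%) patterns were in none of the 5. A match is a stretch of letters and not a measured site.

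In vehicle mice all 8 members were higher in liver than in lung, and 5 of 8 were lower in forestomach than in lung. A call required a limma p, adjusted over all 55681 probes, of no more than 0.05 together with a 1.5-fold difference. By this rule 26.9% of probes were called between liver and lung (11.1% higher and 15.7% lower in liver), 19.5% between forestomach and lung (8.9% higher and 10.6% lower in forestomach) and 22.7% between liver and forestomach (9.89% higher and 12.8% lower in liver). The median difference of the members between liver and lung was 2.65 log2 units, against 0.01 over all probes. The members thus differed in how lung and forestomach compared, not in liver being the highest. C2, C3, C4b, Cfb and C6 had lung above forestomach, and the 3 C1q genes had lung and forestomach close together. In bulk tissue, fewer cells of a type and less RNA per cell cannot be told apart. Liver lay on slides of its own, so its differences from lung and forestomach cannot be told apart from the slide.

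**Figure D1:**
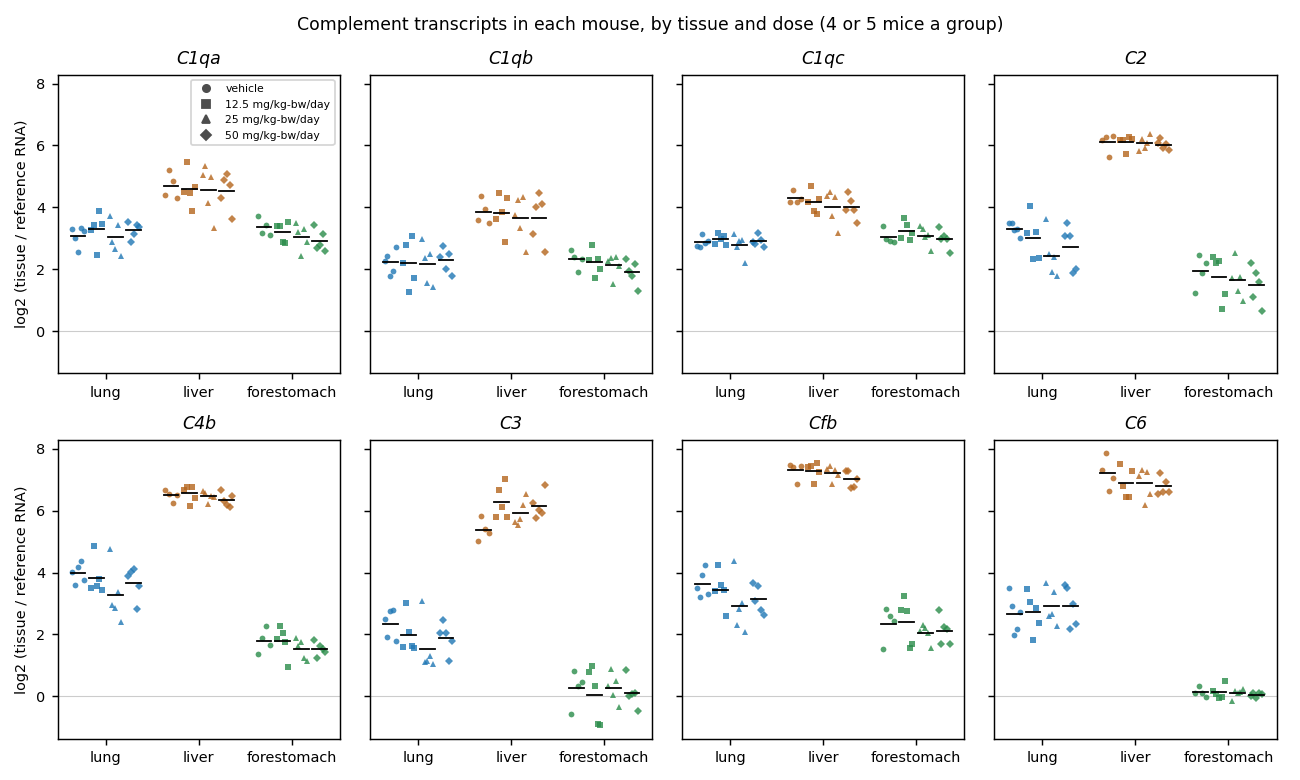
Log2(Cy5/Cy3) of each complement gene (vertical axis) in every mouse, by tissue and dose group. Each point is 1 mouse. C2, C3, C4b, C6 and Cfb in liver lay above every lung and forestomach array, while C1q values of liver and lung overlapped once all doses were included.

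C3, the central component, had vehicle levels of 5.02, 5.82, 5.41 and 5.29 in liver (mice 1, 2, 3 and 5), 2.49, 1.93, 2.77, 2.80 and 1.78 in lung (mice 1 to 5) and −0.56, 0.83, 0.33 and 0.46 in forestomach (mice 1, 2, 3 and 5). The 3 tissues did not overlap. C3 was 8.16-fold higher in liver than in lung (log2 difference 3.03, SE 0.37, adjusted p = 1.03e-09) and 4.25-fold lower in forestomach than in lung (log2 difference −2.09, SE 0.37, adjusted p = 8.59e-06). The size of the liver difference depended on the processing. It was 1.58 with the Cy5 signal alone, brought to the same distribution on all arrays (quantile normalization) in place of the ratio. C3 also had the brightest probe of the members, with a mean log2 Cy5 signal of 15.9 over all arrays, against 13.5 for C4b, the next gene. Whether this brightness bears on the tissue difference or on the liver dose differences below was not tested.

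C6, a subunit of the membrane attack complex, had vehicle levels of 7.31, 7.85, 6.63 and 7.06 in liver, 3.50, 2.94, 1.97, 2.17 and 2.72 in lung and 0.12, 0.32, 0.11 and −0.03 in forestomach. Every liver value exceeded every lung value, and every lung value exceeded every forestomach value. The liver level was 23.5-fold that of lung (log2 difference 4.55, SE 0.30, adjusted p = 3.9e-19). Only 1 of 4 vehicle forestomach arrays was above background, so the difference from lung was measured against a signal near background and its size is uncertain. As measured, lung was 5.77-fold above forestomach (log2 difference of forestomach from lung −2.53, SE 0.30, adjusted p = 4.82e-10).

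Cfb, the protease precursor of the alternative pathway, was at 7.48, 7.43, 6.86 and 7.45 in vehicle liver, 3.51, 3.22, 3.92, 4.26 and 3.32 in lung and 1.53, 2.83, 2.59 and 2.45 in forestomach. The tissues were again separate in vehicle mice, with mouse 3 the low one in liver and mouse 1 in forestomach. Cfb was 12.6-fold higher in liver than in lung (log2 difference 3.66, SE 0.32, adjusted p = 3.33e-14) and 2.46-fold lower in forestomach than in lung (−1.30, SE 0.32, adjusted p = 0.0011).

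C2, its counterpart in the classical pathway and its neighbour on chromosome 17, had vehicle levels of 6.16, 6.29, 5.64 and 6.31 in liver, 3.48, 3.49, 3.26, 3.30 and 2.99 in lung and 1.22, 2.47, 1.89 and 2.20 in forestomach, with no overlap. The differences were 6.93-fold between liver and lung (2.79, SE 0.35, adjusted p = 1.07e-09) and 2.57-fold between lung and forestomach (forestomach minus lung −1.36, SE 0.35, adjusted p = 0.00135). C4b, the C4 gene, was at 6.68, 6.54, 6.25 and 6.52 in liver, 4.03, 3.58, 4.20, 4.38 and 3.77 in lung and 1.37, 1.89, 2.27 and 1.67 in forestomach, and these groups were separate as well. Its differences were 5.68-fold between liver and lung (2.51, SE 0.28, adjusted p = 9.47e-11) and 4.56-fold between lung and forestomach (forestomach minus lung −2.19, SE 0.28, adjusted p = 7.92e-09).

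The C1q genes differed less. C1qa, which encodes the A chain, was at 4.39, 5.20, 4.85 and 4.29 in vehicle liver, 3.30, 3.00, 2.56, 3.32 and 3.24 in lung and 3.71, 3.17, 3.41 and 3.10 in forestomach. Liver was above both other tissues, which overlapped. C1qb, the B chain gene, was at 3.59, 4.35, 3.94 and 3.50 in liver, 2.26, 2.42, 1.79, 1.95 and 2.72 in lung and 2.62, 2.39, 1.91 and 2.34 in forestomach, with the same pattern. C1qc, the C chain gene, was at 4.18, 4.56, 4.16 and 4.28 in liver, 2.75, 2.71, 3.13, 2.86 and 2.90 in lung and 3.41, 2.97, 2.91 and 2.87 in forestomach, again with liver apart and the other tissues overlapping.

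Liver exceeded lung 3.03-fold for C1qa (1.60, SE 0.31, adjusted p = 2.32e-05), 3.07-fold for C1qb (1.62, SE 0.35, adjusted p = 0.000134) and 2.68-fold for C1qc (1.42, SE 0.21, adjusted p = 5.57e-08). These 3 calls were lost when each array was centred on its median in place of loess (0.50, 0.58 and 0.26). Forestomach minus lung was 0.26 for C1qa (SE 0.31), 0.09 for C1qb (SE 0.35) and 0.17 for C1qc (SE 0.21), with adjusted p from 0.588 to 0.889, and under median centring these values were −0.17, −0.42 and −0.40. They have no settled direction. The list of macrophage markers, of which 11 of 12 genes were measured, had scores (mean log2 ratio) of 0.95 to 2.14 in liver, 1.09 to 1.52 in lung and −0.23 to 0.41 in forestomach. Its genes did not move together: in vehicle mice 3 of 11 were called higher in liver than in lung and 5 lower (median −0.38). Clec4f and Cd5l had vehicle means of 6.45 and 6.23 in liver against −0.004 and 0.47 in lung. Csf1r and Lyz2 had 0.01 and 0.48 in liver against 1.17 and 4.04 in lung.

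Between liver and forestomach all 8 members were called. The C6 difference, measured as 7.08 (SE 0.31), was again taken against a forestomach signal near background. The other differences were 5.12 for C3 (SE 0.39), 4.95 for Cfb (SE 0.34), 4.69 for C4b (SE 0.30) and 4.15 for C2 (SE 0.36). Those of the C1q genes were 1.33 (SE 0.33), 1.53 (SE 0.37) and 1.26 (SE 0.22) for C1qa, C1qb and C1qc. The adjusted p values lay between 4.96e-26 and 0.000836. The exact permutation p of each single called difference was the smallest the group sizes allow, 0.00794 for 5 against 4 mice and 0.0286 for 4 against 4. The share of all probes whose groups did not overlap was not computed, so how common such separation is cannot be said.

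**Figure D2:**
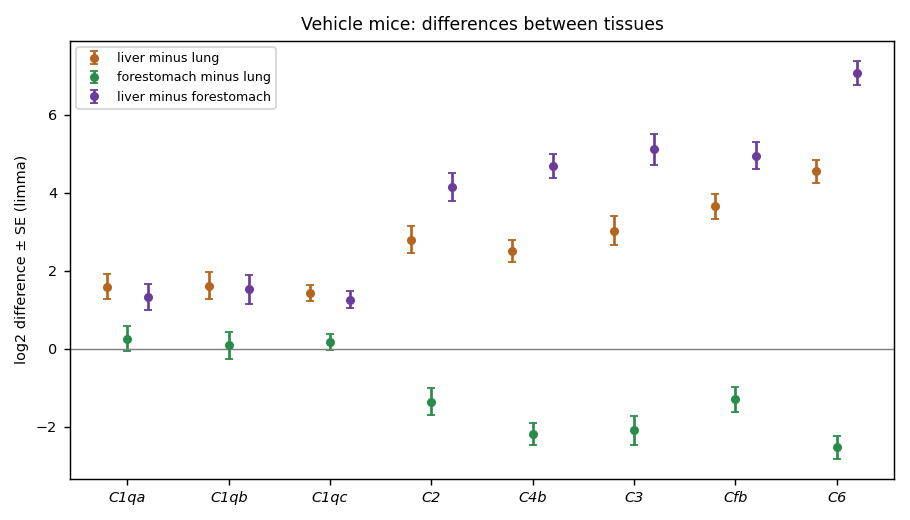
Differences between tissues in vehicle mice (vertical axis, log2 units; bars are limma standard errors) for the 8 measured genes. Liver minus lung ran from 1.42 (C1qc) to 4.55 (C6), and forestomach minus lung was near 0 for the C1q genes and from −2.53 to −1.30 for the other 5.

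Of 38 other complement genes measured from a list of 39, 32 were called between liver and lung, 26 higher and 6 lower in liver. All 5 terminal pathway genes, all 3 classical starters and 7 of 8 lectin pathway starters were higher in liver. C1ra and C1s1, the proteases bound to C1q, were 2.10 and 2.02 log2 units higher (adjusted p = 4.31e-14 and 4.42e-13). Among 12 regulators, 9 were higher, such as the C1 inhibitor gene Serping1 (1.57, adjusted p = 1.65e-08). Of 8 receptors, 4 were lower in liver and 1 was higher. The lower ones included Itgb2 (−1.89, adjusted p = 1.18e-09), the common chain of complement receptors on leukocytes. The higher one was Vsig4 (5.36, adjusted p = 3.89e-20), a receptor of tissue macrophages. Cfd, the factor D gene and a product of fat cells, was called lower in liver than in lung (adjusted p = 0.000326). It was above background in only 1 of 4 vehicle livers, so the size of this difference is uncertain. The list of 5 fat cell genes had lung scores of 1.23 to 3.83 in vehicle mice, and its part in the Cfd value was not tested.

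Forestomach differed from lung in 21 of the 38 genes, 7 higher and 14 lower. The 5 receptors called were all lower in forestomach, Itgax among them (−3.19, adjusted p = 2.19e-18). Between liver and forestomach 27 were called, 26 of them higher in liver. The exception was Cd55, a regulator that dismantles the convertases (−1.10, adjusted p = 0.000519).

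None of the 8 members was called at any dose in any tissue. Of all probes, 0, 0.0126 and 0.079% were called in lung at the low, middle and high dose, and 0% in liver or forestomach, so calls were rare on the whole array. At an unadjusted limma p under 0.05, 2 members passed in lung at 25 mg/kg-bw/day, 1 in liver at 12.5 and 1 in liver at 50, and none in the other 6 comparisons. Over all probes the shares at this p were 3.92, 6.53 and 8.8% in lung from the low to the high dose. They were 2.6, 4.44 and 6.87% in liver and 4.12, 3.6 and 3.89% in forestomach. Among 8 members even 1 pass is a larger share than any of these, so counts this small cannot be weighed against the array.

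**Figure D3:**
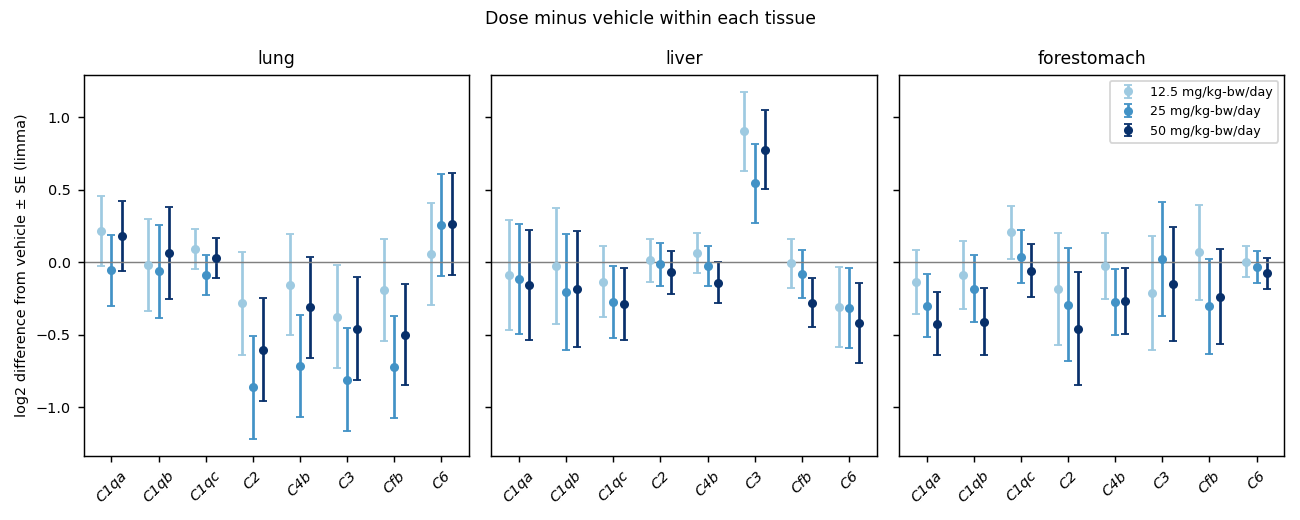
Difference of each dose group from vehicle within each tissue (vertical axis, log2 units; bars are limma standard errors). C3 in liver was above 0 at all 3 doses, and C2, C3, C4b and Cfb in lung were lowest at 25 mg/kg-bw/day, but no difference was called.

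In liver, C3 stood apart from the other members. Against the vehicle values of 5.02, 5.82, 5.41 and 5.29, the levels at 12.5 mg/kg-bw/day were 5.80, 6.67, 6.13, 7.03 and 5.79 (mice 6 to 10). At 25 mg/kg-bw/day they were 5.63, 5.55, 5.72, 6.19 and 6.53 (mice 11 to 15), and at 50 mg/kg-bw/day 6.24, 5.75, 6.03, 5.92 and 6.84 (mice 16 to 20). Vehicle mouse 2 was the high control, and its level overlapped each dose group, while the other 3 vehicle mice lay below all dosed mice. The difference from vehicle was 0.90 at 12.5 mg/kg-bw/day (SE 0.27, limma p = 0.0037, adjusted p = 1.0, exact permutation p = 0.0476), 0.54 at 25 (SE 0.27, adjusted p = 0.904, exact permutation p = 0.0873) and 0.77 at 50 (SE 0.27, limma p = 0.0105, adjusted p = 0.713, exact permutation p = 0.0238). None passed the adjustment over all probes. The second C3 probe gave 0.68 at 12.5 and 0.52 at 50.

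Within each of the 3 liver slides C3 was higher than vehicle, by 0.72 to 1.13 at 12.5 mg/kg-bw/day and by 0.57 to 1.01 at 50. The value depended on the processing: with Cy5 alone, quantile-normalized over arrays, the differences were 0.28 and 0.29, and with median centring 1.29 and 1.31. None of the 4 vehicle livers was among the 5 arrays with a high share of probes above background. Without those arrays the C3 differences were 0.71 and 0.52, and with the share as a covariate 0.72 and 0.45. The other 7 members in liver ranged from −0.42 (C6 at 50) to 0.06 (C4b at 12.5) across the doses.

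In lung, the lowest values were those of the convertase genes at 25 mg/kg-bw/day. C3 was at 3.09, 1.11, 1.16, 1.31 and 1.05 in mice 11 to 15, against 1.78 to 2.80 in vehicle mice. C2 was at 3.63, 2.50, 1.91, 2.38 and 1.79, against 2.99 to 3.49. In both genes mouse 11 lay above all vehicle mice and the other 4 mice lay below all of them. The differences were −0.81 for C3 (SE 0.35, limma p = 0.0331, adjusted p = 0.706, exact permutation p = 0.0873) and −0.86 for C2 (SE 0.36, limma p = 0.0243, adjusted p = 0.67, exact permutation p = 0.0476). Those of Cfb and C4b were −0.72 and −0.72 (SE 0.35 each). Without mouse 11 the differences were −1.20 for C3 and −1.16 for C2, and with median centring −0.49 and −0.59. On the 5 slides, each with 1 array of either group, the difference was below 0 on 4, the exception being the slide of mouse 11.

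At 50 mg/kg-bw/day the lung differences were −0.60 for C2 (SE 0.36, adjusted p = 0.698) and −0.46 for C3 (SE 0.35, adjusted p = 0.816), and C6 was at 0.26 (SE 0.35). The C1q genes in lung ranged from −0.09 to 0.21 over the doses. Mesothelium genes, which mark the sheet of cells around the lung, moved with the convertase genes: 4 of the 5 on the list (Msln, Upk3b, Upk1b, Wt1, Lrrn4) had a p under 0.05 and were lower at 25 mg/kg-bw/day, with a median of −1.17. Their score was 0.11 to 0.91 in vehicle lungs and −1.03 to 1.07 at 25 mg/kg-bw/day, where mouse 11 had the highest value. In the fat cell list 4 of 5 genes were lower at p under 0.05, with a median of −1.62, in the fibroblast list 3 of 5, with a median of −0.31, and in the macrophage list 1 of 11. The part of these cells in the C2 and C3 values was not tested.

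In forestomach no member reached a p of 0.05 at any dose. The median glandular stomach score there was 6.23 in vehicle mice and 1.85, 2.28 and 4.98 at rising dose. Its part in the dose differences was not tested. The members ranged from −0.46 (C2 at 50 mg/kg-bw/day) to 0.21 (C1qc at 12.5), and the medians were −0.06, −0.23 and −0.25 at rising dose. At 50 mg/kg-bw/day all 8 estimates were below 0, and the smallest limma p was 0.0673 for C1qa (−0.43, SE 0.22, adjusted p = 1.0, exact permutation p = 0.103).

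The difference between tissues in the response to IP was tested directly. No member passed an adjusted p of 0.05. Among all probes 0% passed at the low and middle dose, and at the high dose 0.0162% for liver against lung, 0.0144% for forestomach against lung and 0.00359% for liver against forestomach. C3 was the sole member with an unadjusted limma p under 0.05, a level that 2.86, 4.69 and 7.08% of probes reached for liver against lung from the low to the high dose, 2.37, 2.02 and 2.91% for forestomach against lung and 4.3, 5.3 and 6.17% for liver against forestomach. Its response in liver exceeded that in lung by 1.28 at 12.5 (SE 0.51, adjusted p = 1.0), 1.35 at 25 (SE 0.51, adjusted p = 0.978) and 1.23 at 50 mg/kg-bw/day (SE 0.51, adjusted p = 0.638). These 3 values share the vehicle groups of both tissues. With Cy5 alone they were 0.66, 0.86 and 0.66. At 12.5 mg/kg-bw/day the response of C3 in liver also exceeded that in forestomach, by 1.11 (adjusted p = 1.0).

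The other 38 complement genes gave no call at any dose either. At p under 0.05 without adjustment, 3 passed in lung at 12.5 mg/kg-bw/day, 4 at 25 and 3 at 50. Clu, a regulator of the terminal complex, was at −0.45 and Cfd at −2.72 at 25 mg/kg-bw/day (limma adjusted p = 0.382 and 0.431). The fat cell list was low in the same group, and its part in the Cfd value was not tested. In liver 1 gene passed at 12.5, none at 25 and 5 at 50 mg/kg-bw/day, among them Itgam, the alpha chain of complement receptor 3 (−0.25, adjusted p = 0.656), the protease gene C1s2 (0.33, adjusted p = 0.713) and C4bp, an inhibitor of the classical convertase (−0.57, adjusted p = 0.718). In forestomach 1 gene passed at 12.5, 1 at 25 and none at 50.

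From mouse to mouse, the genes of the C3 convertases and their substrate varied together in lung and forestomach, and in lung other members did so in part. Relations were computed on the deviations of each mouse from its dose group mean, for 28 pairs in each of 3 tissues, with p values from permutations of mice within dose groups adjusted over all 84. Of these, 11 pairs in lung, 6 in liver and 6 in forestomach had an adjusted p of at most 0.05 for Pearson's r. In lung all 6 pairs of C2, C3, C4b and Cfb passed (r of 0.72 to 0.93), and in forestomach 5 of 6 (r of 0.53 to 0.94 over the 6 pairs). In liver 2 of 6 passed (r of 0.12 to 0.89).

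In lung the highest r was that of C3 with C4b (r = 0.93, permutation p = 2e-05, adjusted p = 0.000336; Spearman's rho = 0.90, adjusted p = 0.00084; 20 mice). It was 0.83 without the 2 mice farthest from the median and 0.94 with deviations taken within slides. In forestomach C3 with Cfb had r = 0.94 (permutation p = 2e-05, adjusted p = 0.000336; rho = 0.90, adjusted p = 0.0022; 19 mice), 0.91 without the 2 mice farthest out and 0.97 within slides. The r of both pairs remained high under these changes.

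In liver the relation lay among the C1q genes, where all 3 pairs passed. C1qa and C1qb had r = 0.93 (permutation p = 1e-05, the smallest the permutations can give, adjusted p = 0.000336; rho = 0.93, adjusted p = 0.00042; 19 mice), 0.90 without the 2 mice farthest out, 0.96 within slides and 0.81 over the 14 arrays without a high share. For C1qb and C1qc r fell from 0.84 to 0.51 over those 14 arrays (adjusted p over all 19 = 0.00115 by permutation; rho = 0.81). In lung and forestomach 1 of 3 C1q pairs passed in each, C1qa with C1qb (r = 0.70 and 0.67, adjusted p = 0.0246 and 0.0269). With deviations taken within slides all 3 lung pairs passed: C1qa with C1qb had r = 0.76 (adjusted p = 0.0107 by permutation), C1qa with C1qc 0.86 in place of 0.33 (adjusted p = 0.000452) and C1qb with C1qc 0.80 in place of 0.41 (adjusted p = 0.00117). These permutations kept the dose groups but crossed slides, so the p values within slides may be too small. In forestomach the r within slides was 0.66, 0.82 and 0.54 for these pairs, with no p computed. The liver pairs of the convertase genes depended on the slide. C4b with Cfb had r = 0.89 (permutation p = 0.00015, adjusted p = 0.00126; rho = 0.81) but 0.35 within slides, and C2 with Cfb had r = 0.68 (permutation p = 0.00953, adjusted p = 0.0364; rho = 0.54) but 0.38 within slides and 0.40 without the 2 mice farthest out. Over the 14 arrays without a high share r was 0.88 for C4b with Cfb and 0.85 for C2 with Cfb. No p was computed within the liver slides.

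**Figure D4:**
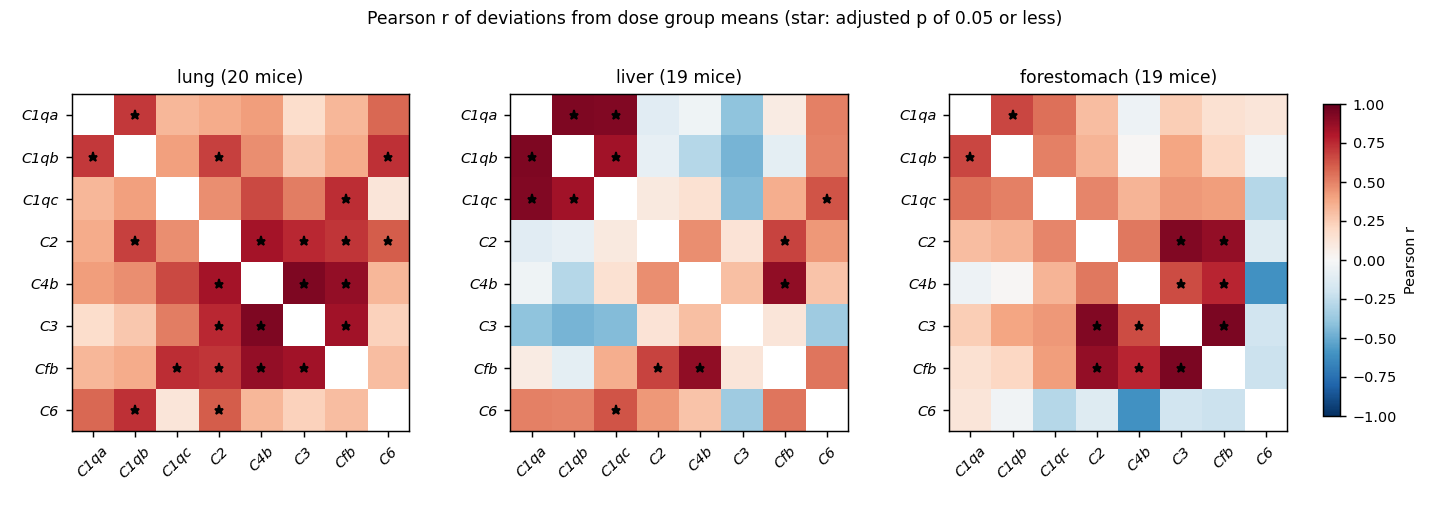
Pearson r between members over mice, from deviations from the dose group means, for lung (20 mice), liver and forestomach (19 each); the colour scale runs from −1 to 1 and a star marks an adjusted p of at most 0.05. The block of C2, C4b, C3 and Cfb was starred in full in lung (r of 0.72 to 0.93), and the block of the 3 C1q genes in liver (r of 0.84 to 0.93).

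The same deviations were set against 9 marker lists and the share of probes above background, 240 relations in all, adjusted together. None of the lists holds a member. In lung, the mesothelium list followed C2 most closely (r = 0.95, permutation p = 3e-05, adjusted p = 0.00192; rho = 0.93, adjusted p = 0.0024). This r was 0.92 without the 2 mice farthest out, 0.94 within slides and 0.96 over the 16 arrays without a high share. C4b (r = 0.84), C3 (0.81) and Cfb (0.75) also passed with this list, with adjusted p from 0.0072 to 0.022 by permutation, and their r within slides was 0.87, 0.81 and 0.84. The fat cell list passed with no member in lung (r of −0.04 to 0.11). With the hepatocyte list 1 member passed in lung (r of −0.05 to 0.58 over the 8 members). With the share of probes above background 1 member passed as well (r of −0.68 to 0.39).

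In forestomach the mesothelium list again passed with C2 (r = 0.86), C3 (0.80) and Cfb (0.73), with adjusted p of 0.0028, 0.00806 and 0.0237 by permutation and r within slides of 0.86, 0.78 and 0.71. For Cfb rho was 0.61 (adjusted p = 0.104), short of the threshold. The mesothelium score ranged from −1.03 to 1.07 in lung and from −1.19 to 0.30 in forestomach. Each of its 5 genes was above background in all 5 vehicle lungs and all 4 vehicle forestomachs. C1qc in forestomach passed with the fibroblast (r = 0.82), macrophage (0.74) and B cell (0.73) lists and, with the opposite sign, with the glandular stomach list (−0.69). The adjusted p values by permutation were 0.0063, 0.0072, 0.00672 and 0.0398, and r within slides 0.71, 0.62, 0.83 and −0.54.

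In liver the C1q genes followed the macrophage list, which includes the Kupffer cell genes Clec4f and Cd5l. The r was 0.94 for C1qa, 0.86 for C1qb and 0.90 for C1qc (each adjusted p = 0.00192 by permutation), and 0.92, 0.88 and 0.90 within slides. Over the 14 arrays without a high share it was 0.90, 0.72 and 0.78. The 5 arrays with a high share held the 5 lowest liver levels of C1qb (2.57, 2.57, 2.87, 3.14 and 3.32), and among the other 14 arrays the r of C1qa, C1qb and C1qc with the share was 0.21, 0.47 and −0.25. Cfb, C4b and C2 in liver passed with the hepatocyte list (r = 0.96, 0.87 and 0.70, adjusted p = 0.00192, 0.00343 and 0.0437 by permutation), but within slides r was 0.61, 0.33 and 0.43. On slide 7 the hepatocyte score of the 5 arrays was 7.36 to 7.54, against 7.97 to 8.60 on the other liver slides. C1qa, C1qb, C1qc and C6 passed with the squamous epithelium list with a negative sign (r = −0.83, −0.83, −0.80 and −0.72, adjusted p from 0.00667 to 0.0185 by permutation), although that list was low in every liver (score −0.64 to −0.29). Over the 14 arrays without a high share these r were −0.36, −0.23, −0.34 and −0.56. With the share itself 5 of 8 members passed, C1qa, C1qb, C1qc, C3 and C6, and over the 14 arrays the r of C3 and C6 with the share was 0.61 and −0.42. C3 passed with the mesothelium list with a negative sign (r = −0.77, permutation p = 0.00092, adjusted p = 0.013, −0.75 within slides), although that list was low in every liver (score −2.41 to −1.68). The part of each cell type in the complement levels was not tested.

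**Figure D5:**
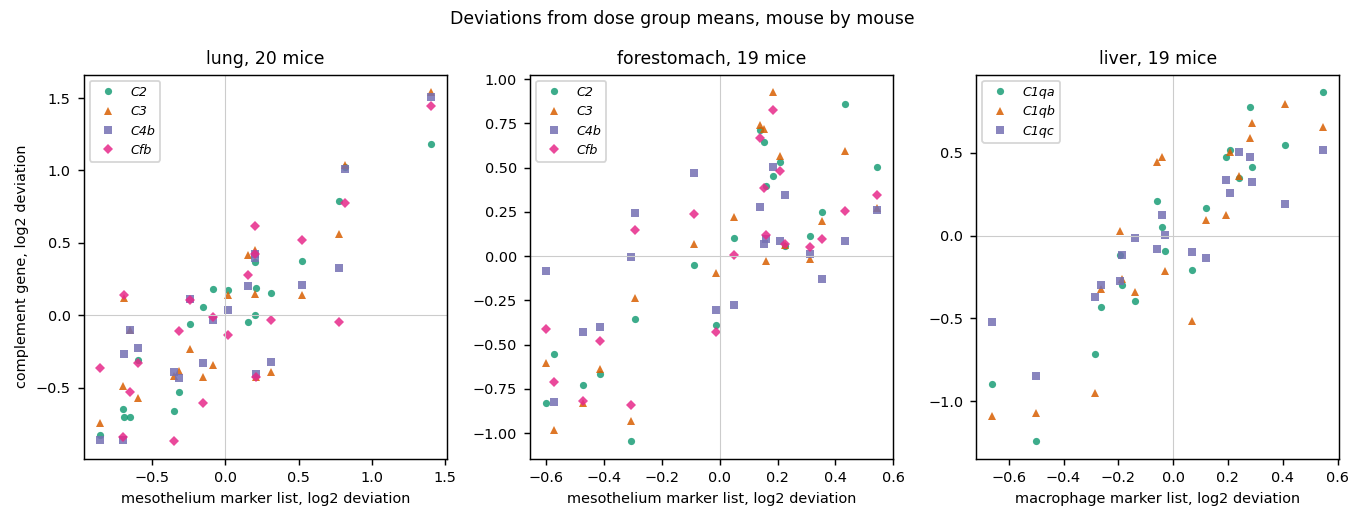
Deviation of each mouse from its dose group mean (log2 units) for complement genes (vertical axis) against the mean of a marker list (horizontal axis): mesothelium in lung and forestomach, macrophage in liver. Each point is 1 mouse and gene. C2 in lung (r = 0.95) and C1qa in liver (r = 0.94) lay closest to a line.

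Genes whose deviations were most like those of the members were looked up over all gene names measured in each tissue, as a description. In liver the mean of the C1q genes was most like Clec4f, Tbxas1 and Cd5l (r = 0.94 each, 19 mice, 19920 genes). In forestomach it was most like Folr2 (0.89), Lilra6 (0.88) and Gpc3 (0.84), and in lung most like AU021092 (0.85), D7Ertd143e (0.84) and Ltb4r1 (0.83). C3 was most like Gas1 (0.94), Sfrp2 (0.93) and Adgrd1 (0.92) in lung (20 mice, 19953 genes). In forestomach its nearest genes were Lrrn4 (0.81), Crb2 (0.80) and Wt1 (0.80) over 19934 genes, of which Lrrn4 and Wt1 are on the mesothelium list. In liver they were Grpel1 (0.92), Ric8a (0.90) and Stat3 (0.90), so the genes nearest to C3 were different ones in each tissue.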

How the data were processed

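RNA of each mouse and tissue was hybridised on its own 2-colour Agilent array, 58 in all. Spot intensity values (median Cy5 and Cy3 signals) were produced by the authors with Agilent scanner software and deposited uncorrected. The deposited log10 ratios carry that software's own background and dye correction, per the file headers. A table of log2 values deposited by the authors held LOWESS-normalized ratios of medians. Both served as alternatives, the last not in liver, where its probe names were displaced against the scanner values. Here log2(Cy5/Cy3) of median signals was loess-normalized within arrays without background subtraction. Outlier spots were dropped and spots of a probe averaged. limma 3.58.1 in R 4.3.3 (with statmod 1.5.0 and data.table, version 1.17.8) fitted each tissue (4 groups), and all 58 arrays together for tissue comparisons. Benjamini-Hochberg adjustment covered all 55681 probes. It stands for the MAANOVA test of the study's methods. Calls needed an adjusted p no higher than 0.05 with a 1.5-fold change, and differences in response the p alone. Each gene was read by its brightest probe. Members in dose comparisons were named at an unadjusted p under 0.05, and in tissue comparisons always. Other complement genes were named when called, or among the 3 smallest p. The fits were tested on simulated data. Lung and forestomach shared slides 1 to 5, each with 1 array per group and tissue except that slide 2 held no vehicle forestomach. Liver alone was on slides 6 to 8, so its differences from the other tissues and the slide cannot be told apart. Lung and forestomach lay in different array rows, so tissue and row cannot be told apart there. In lung and forestomach the array column on a slide and the dose cannot be told apart, and in liver all but 2 arrays (mice 9 and 14) followed the same order. Members, lists and tests were chosen with earlier results of these data known, and motifs and marker relations after the data were seen. Tissues share mice by the labels' mouse numbers, and the correlation within a mouse was 0.046. Each mouse was 1 sample, and the number of arrays limits the precision. Within groups no arrays were identical (highest r = 0.982). Alternatives were other background and normalization settings, other tests, blocks and left-out arrays.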

Additional observations from a re-analysis of the deposited data

Results flagged for a closer look

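Of 96 groups of 4 or 5 mice tested for a sample far from the others, 4 had one, and chance alone flags about 1 in 20 groups. In lung at 25 mg/kg-bw/day, mouse 11 had a C3 level of 3.09 against 1.05 to 1.31 in the other 4 mice. In lung at 12.5 mg/kg-bw/day, mouse 7 had a C4b level of 4.85 against 3.45 to 3.80. In liver at 12.5 mg/kg-bw/day, mouse 8 had a C2 level of 5.71 against 6.18 to 6.28. In vehicle liver, mouse 3 had a Cfb level of 6.86 against 7.43 to 7.48. Mice 3 and 8 lie on liver slide 7, whose 5 arrays had Cfb levels of 6.74 to 6.86 against 7.04 to 7.53 on slides 6 and 8, and hepatocyte scores of 7.36 to 7.54 against 7.97 to 8.60. The part of the slide in these values was not tested.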

How the results depend on the processing

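The counts of members called kept within 1.5 times of their value under all alternatives run except those given here. With a looser threshold (an unadjusted p below 0.05 with at least 1.2-fold), counting each gene at each of the 3 doses as a result, 2 member results passed in lung (C2 and C3 at 25 mg/kg-bw/day) and 2 in liver (C3 at 12.5 and 50), and 10, 5 and 1 results of the other complement genes in lung, liver and forestomach, against 0 each. Median centring left 5 of 8 calls between liver and lung, as C1qa, C1qb and C1qc fell to 0.50, 0.58 and 0.26. It turned the uncalled forestomach against lung differences of these genes to −0.17, −0.42 and −0.40. C1qb was at −0.035 there with Cy5 alone, at −0.021 without arrays of a high share, and from −0.021 to 0.224 when single mice were left out. With the scanner's log ratio, C1qa lost its call between liver and forestomach at a value of 1.25. The number of lung members with an exact permutation p of 0.05 or less, 1 in the reported setting, was 0 with median centring. Relations with an adjusted p of at most 0.05 rose from 11 to 20 in lung with slide in the deviations, and from 6 to 21 in liver and 6 to 10 in forestomach with median centring. The count of 20 may be too high, since its permutations crossed slides. The relations tested are counted next. The relations tested number 84, fewer than planned, since C7 was not measured. With the mouse as a replicate block, 8, 5 and 8 members were called between tissues as before, and C3 differed between liver and lung responses by 1.28, 1.35 and 1.23 at the 3 doses. Leaving out single mice moved the C3 difference in lung at 25 mg/kg-bw/day between −1.20 and −0.69 and that of C2 between −1.16 and −0.70, and the C3 difference in liver between 0.71 and 1.05 at 12.5 and 0.60 and 0.92 at 50 mg/kg-bw/day. Probes near background bound what can be seen for C6 in forestomach.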
